A study of Mus musculus with 4 samples.

Results

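The 41 genes described here encode proteins that license replication origins, open and copy the DNA at the replication fork, and make the deoxynucleotides it uses. They were taken as a fixed list of symbols, of 32285 genes in the deposited RNA matrices, and all 41 were found. They fall into 9 licensing genes, 6 helicase activation genes, 20 fork genes and 5 nucleotide supply genes, with Uhrf1 standing alone. The study traced clones of mouse keratinocytes with an inducible tag. The 2 RNA libraries compared here, MK and Diff_MK, are both labelled as Dox-treated cells of the mouse keratinocyte line MK, sorted for GFP and read with 10x Genomics 3′ v3 chemistry. What the prefix Diff stands for is not spelled out in the labels used here, and the tag library made from each sample was not used. Each group is 1 library, so no p-value is given. The 95% intervals cover counting error for levels and ratios, sampling of cells for shares, and spread over genes for medians. Differences below are between these libraries, and whether they exceed the spread between cultures could not be tested.

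Before S phase, the origin recognition complex, Cdc6 and Cdt1 load the Mcm2 to Mcm7 helicase onto origins. In S phase Cdc45 and the GINS complex turn the loaded helicase on, and polymerases, the sliding clamp and its loader then copy the strands while ribonucleotide reductase and thymidylate synthesis supply the building blocks. E2F transcription factors drive many of these genes as cells pass from G1 into S phase. In the epidermis, basal keratinocytes divide and stop replicating as they differentiate.

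After cells with fewer than 1000 genes or over 15% mitochondrial counts were removed, 7175 MK and 6912 Diff_MK cells remained, with 115181759 and 103885150 unique molecular identifiers (UMIs, each standing for 1 captured transcript). The median cell held 15599 UMIs in MK and 14223.5 in Diff_MK, and the median mitochondrial share was 5.42% and 6.08%. Only 9 barcode sequences were kept in both libraries. All 8 keratinocyte markers were at 5 CPM (a gene's UMIs per 1000000 UMIs of the library) or more, while none of the melanocyte, fibroblast, immune, endothelial or erythroid markers reached it. Levels, given as CPM of all kept cells of a library, were not compared between genes, since 3′ capture differs from gene to gene. All 41 genes were among the 9052 with a mean of at least 5 CPM.

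A sequence word known from E2F sites was unevenly spread over the starts of these genes. The windows from 250 bases before to 50 bases after each start in the RefSeq table (GRCm38.p6) covered 33 of the 41 genes. An E2F motif was searched as 4 words, TTTCCCGC, TTTCGCGC, TTTGCCGC and TTTGGCGC, on both strands, where matches on opposite strands can overlap. Of the 32851 promoter windows given there, 2.26% held a match, against 14 of the 39 windows of these genes (35.9%). By role it was present for 6 of 7 licensing genes with a window, 1 of 3 helicase activation genes, 6 of 17 fork genes and none of 5 nucleotide supply genes. The CCAAT word was in 56.4% of the member windows and 37.4% of all windows, and the CHR words TTTGAA or TTCGAA, also on both strands, in 7 of 39 and in 19.2% of all. The motifs were chosen with expression results known, a match is a run of letters and not a shown binding site, and no match says only that these words are not in the window. The 160 bases before the RefSeq start are printed for 3 licensing genes, 1 GINS subunit gene and 1 polymerase gene with matches, and for Rrm2, whose window has none, with the matches in capitals.
Cdc6, chr11:98907991-98908150, plus strand: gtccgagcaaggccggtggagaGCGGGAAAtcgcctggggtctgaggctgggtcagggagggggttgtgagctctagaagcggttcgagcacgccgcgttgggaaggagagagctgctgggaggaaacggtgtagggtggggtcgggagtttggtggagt
Mcm5, chr8:75109349-75109508, plus strand: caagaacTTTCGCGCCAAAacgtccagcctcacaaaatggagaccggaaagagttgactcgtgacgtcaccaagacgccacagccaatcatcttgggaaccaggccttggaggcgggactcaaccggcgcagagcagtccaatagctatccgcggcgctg
Mcm6, chr1:128359706-128359865, minus strand: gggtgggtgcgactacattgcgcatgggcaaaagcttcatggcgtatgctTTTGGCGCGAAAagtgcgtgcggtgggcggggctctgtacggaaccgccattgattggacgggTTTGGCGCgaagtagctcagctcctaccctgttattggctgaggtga
Gins3, chr8:95633399-95633558, plus strand: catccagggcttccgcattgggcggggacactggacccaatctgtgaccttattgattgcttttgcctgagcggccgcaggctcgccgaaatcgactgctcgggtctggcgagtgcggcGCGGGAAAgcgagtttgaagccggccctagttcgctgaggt
Pola1, chrX:93632156-93632315, minus strand: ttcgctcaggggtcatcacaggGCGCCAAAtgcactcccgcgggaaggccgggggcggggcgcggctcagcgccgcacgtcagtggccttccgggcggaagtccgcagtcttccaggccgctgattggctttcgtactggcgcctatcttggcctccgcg
Rrm2, chr12:24708094-24708253, plus strand: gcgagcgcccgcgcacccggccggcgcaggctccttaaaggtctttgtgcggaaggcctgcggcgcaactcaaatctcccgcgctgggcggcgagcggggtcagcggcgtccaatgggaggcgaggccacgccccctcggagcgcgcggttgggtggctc
In Mcm5 and Mcm6 the long capital run is a pair of matches on opposite strands that overlap, and Mcm6 has another match nearer the start, 47 bases before it. The annotation used for gene positions places some starts elsewhere, with Cdc6 from base 98907801, Gins3 from 95633453 and Rrm2 from 24708241. By these starts the printed Cdc6 stretch, most of the Gins3 stretch and the last bases of the Rrm2 stretch lie within the gene. The Cdc6 and Gins3 matches then lie after the start.

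Replication genes were lower in Diff_MK almost throughout. Their summed level was 2744 CPM in MK and 1793 CPM in Diff_MK, 1.53-fold lower (interval 1.52 to 1.54). Of the 41 genes 40 were lower, where 69.4% of all genes tested were also lower, and 22 were at least 1.5-fold lower, where 7.59% of all genes tested were. None reached 2-fold in CPM of all kept cells. With each library scaled instead by the median ratio of all genes, 39 of 41 were lower and 10 at least 1.5-fold lower. Under that scaling the median log2 ratio of all genes tested is 0 by construction, and their share at 1.5-fold was not counted. Weighting every cell equally put Mcm3 (log2 ratio -1.17), Cdc6 (-1.14), Pcna (-1.06) and Cdt1 (-1.05) beyond 2-fold lower. The median log2 ratio of Diff_MK to MK was -0.63 over the members and -0.15 over all genes tested. Part of the members' median difference is thus shared with the bulk of genes, while Gins4 (0.01) and Pold2 (-0.06) lay above the all-gene median. The plot of levels by role shows the Diff_MK point under the MK point for every gene but Gins4.

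**Figure D1:**
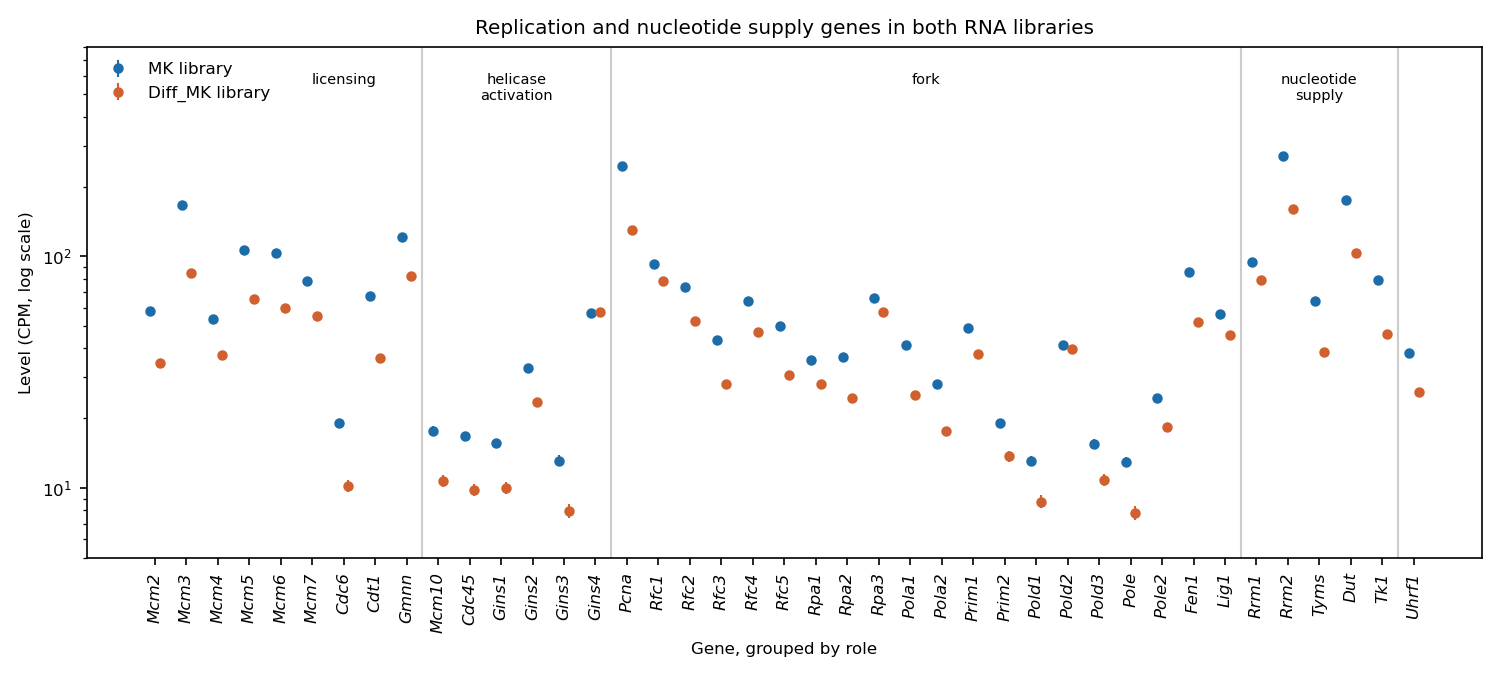
Level of each of the 41 genes (CPM, log axis) in the MK library (blue) and the Diff_MK library (orange), grouped by role; points are library values and bars the 95% Poisson interval. Diff_MK lies below MK for 40 genes, by at most the 1.97-fold of Mcm3.

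The licensing genes were lower as a group, all 9 of 9, with a median log2 ratio of -0.76 (interval -0.90 to -0.51). The 6 subunits of the helicase, Mcm2 to Mcm7, summed to 565 CPM in MK and 337 CPM in Diff_MK. Mcm3 (chr1:20802968-20820312) had 165.9 CPM in MK and 84.3 CPM in Diff_MK, a 1.97-fold difference (interval 1.92 to 2.02) and the largest of the 41. The RNA of the other subunits was not lower by the same factor. The proteins act in a ring with 1 copy of each, but RNA levels do not give protein amounts. Mcm7 was 1.41-fold lower (78.2 to 55.2 CPM) and Mcm4 1.43-fold lower (53.8 to 37.7 CPM), while Mcm2, Mcm5 and Mcm6 were between 1.62-fold and 1.71-fold lower. The loaders came close to Mcm3. Cdc6, the ATPase that helps place the helicase, had 19.1 CPM in MK and 10.2 CPM in Diff_MK (1.87-fold, interval 1.74 to 2.01), and Cdt1, its partner, had 67.3 and 36.3 CPM (1.85-fold, interval 1.78 to 1.93). Gmnn, which encodes geminin, the inhibitor of Cdt1, was lower by less, at 120.8 and 82.1 CPM (1.47-fold, interval 1.43 to 1.51). The 3′ end of Mcm7 lies within the opposite-strand gene Cops6, and Cdt1 shares its end with another gene model on its own strand, as Pole2 does. Ends of Gins2, Rfc2, Rfc4, Rfc5, Fen1 and Tk1 also lie within opposite-strand genes. No source used here states whether counting used strand, and the levels of these 9 genes are therefore less certain.

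Among the helicase activators 5 of 6 were lower, with a median log2 ratio of -0.68. Cdc45, a fixed part of the active helicase, had 16.7 CPM in MK and 9.80 CPM in Diff_MK (1.70-fold, interval 1.58 to 1.84). Mcm10, which helps start unwinding, had 17.7 and 10.8 CPM. The GINS subunits, whose proteins form a 1:1 complex, split in RNA level, and protein amounts are not known from these data. Gins3 was 1.65-fold lower (13.1 to 7.98 CPM), Gins1 1.56-fold (15.6 to 10.0 CPM) and Gins2 1.41-fold (33.01 to 23.45 CPM), while Gins4 (chr8:23226616-23237659) had 57.1 CPM in MK and 57.5 CPM in Diff_MK. Gins4 was thus the only gene of the 41 whose CPM was not lower, and the interval of its log2 ratio, -0.04 to 0.06, holds 0. Its direction depends on the scaling. With each library scaled by the median ratio of all genes, its log2 ratio was 0.17, and with every cell weighted equally it was -0.09.

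The fork genes were all lower, 20 of 20. Their median log2 ratio was -0.50 (interval -0.68 to -0.37), nearer 0 than that of the licensing genes with intervals that overlap, and 8 of 20 were at least 1.5-fold lower. Pcna, the sliding clamp (chr2:132249162-132253314), had 245.7 CPM in MK and 130.4 CPM in Diff_MK, 1.88-fold lower (interval 1.85 to 1.92) and the largest difference of this group. Its loader did not share that size. Rfc1, the large subunit of the clamp loader, was 1.18-fold lower (92.7 to 78.3 CPM), and Rfc2, Rfc3, Rfc4 and Rfc5, subunits shared with alternative loaders, were between 1.36-fold and 1.63-fold lower. The subunits of the single-strand binding protein RPA also differed among themselves, with 1.52-fold for Rpa2, 1.27-fold for Rpa1 and 1.15-fold for Rpa3. Of the polymerases, Pole, the leading-strand catalytic subunit, was 1.66-fold lower at 12.9 and 7.79 CPM, and Pola1 and Pola2, which with primase begin each strand, were 1.64-fold and 1.60-fold lower. The primase subunits Prim1 (1.29-fold) and Prim2 (1.39-fold) were lower by less. Pold2, an accessory subunit of the lagging-strand polymerase, had 41.3 and 39.6 CPM, a log2 ratio of -0.06, and it turned to 0.093 under median-ratio scaling. The catalytic subunit Pold1 had 13.1 and 8.74 CPM, and Pold3 was 1.43-fold lower. Pole2, the second polymerase epsilon subunit, was 1.34-fold lower. In lagging-strand processing Fen1, the flap nuclease, was 1.65-fold lower (85.9 to 52.2 CPM) and Lig1, the ligase that seals the fragments, 1.23-fold (56.5 to 45.8 CPM).

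The nucleotide supply genes split into 4 that were nearly equal and 1 that stood apart. Rrm2, the small subunit of ribonucleotide reductase that is made in S phase (chr12:24708241-24714146), had 272.1 CPM in MK and 160.3 CPM in Diff_MK, 1.70-fold lower (interval 1.67 to 1.73). Dut, which removes dUTP, had 175.0 and 103.1 CPM (1.70-fold), Tk1, the cytosolic thymidine kinase, 78.6 and 46.4 CPM (1.70-fold), and Tyms, thymidylate synthase, 64.1 and 38.5 CPM (1.67-fold). Rrm1, the large subunit of the same reductase, was only 1.19-fold lower, at 94.1 and 78.9 CPM (interval 1.16 to 1.23). The intervals of Rrm1 and Rrm2 do not overlap, so the pair differed by more than counting error. Uhrf1, which reads hemimethylated DNA behind the fork, had 38.2 and 26.0 CPM (1.47-fold, interval 1.40 to 1.55).

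To set levels against position in the cell cycle without using the members, cells thinned to 7500 UMIs were classed by 3 sums of other genes: 56 replication-dependent histone genes, 30 G2/M genes and 11 G1/S genes. A cell was high in a sum when it held at least 6 histone, 27 G2/M or 5 G1/S UMIs. These limits were set for the top 25% of both libraries pooled. Cells at a limit counted as high, so more than 25% could pass. The G1/S limit was passed by 46.7% of MK and 18.4% of Diff_MK cells. This gave low cells (high in none), G1/S-high cells (high in G1/S alone), histone-high cells, G2/M-high cells and cells high in both histone and G2/M genes. Cells of the last 3 classes could be high in G1/S too. These are ranges of a score and not types. Within 1 UMI of the limit lay 17.6% of MK and 11.9% of Diff_MK cells for histones, 5.28% and 3.14% for G2/M, and 35.7% and 20.2% for G1/S. Low cells made up 26.2% of MK (1794 of 6838 cells) and 56.5% of Diff_MK (3549 of 6277). The other shares were lower in Diff_MK, at 17.9% and 7.30% for G1/S-high, 25.7% and 14.2% for histone-high, 9.37% and 6.79% for both-high, and 20.8% and 15.2% for G2/M-high cells. Median UMIs before thinning were 15283.5 and 12795 in low cells, 14845 and 16561 in histone-high cells, 17377 and 18662.5 in both-high cells and 18681 and 20502.5 in G2/M-high cells. Histone-high cells held on average 14.3 G2/M and 5.30 G1/S UMIs in MK, and 14.0 and 4.20 in Diff_MK. Doublets were not removed, and the part of depth or doublets in the class levels was not tested.

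All 41 genes were lowest in low cells in both libraries, where 38.2% of all genes tested were in MK and 60.2% in Diff_MK. From low to histone-high cells 24 of 41 were at least 2-fold higher in MK, where 2.44% of all genes tested were, and 39 of 41 in Diff_MK, where 5.61% were. The median log2 difference in MK was 1.18 for licensing, 0.87 for helicase activation, 0.96 for fork and 1.36 for nucleotide supply genes, and in Diff_MK 1.84, 1.54, 1.47 and 1.90. The median over all genes tested was 0.00 in MK and 0.20 in Diff_MK. Mcm10 had the steepest contrast. It went from 6.7 to 22.7 CPM in MK and from 3.4 to 21.3 CPM in Diff_MK. The flattest in MK was Gins3 (10.9 to 12.7 CPM) and in Diff_MK Rpa3 (45.2 to 76.7 CPM). Across the 41 genes this contrast was alike in both libraries (Pearson r = 0.87, Spearman rho = 0.87). The points share the cells, the classes and the depth of a library, so this is a description.

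**Figure D2:**
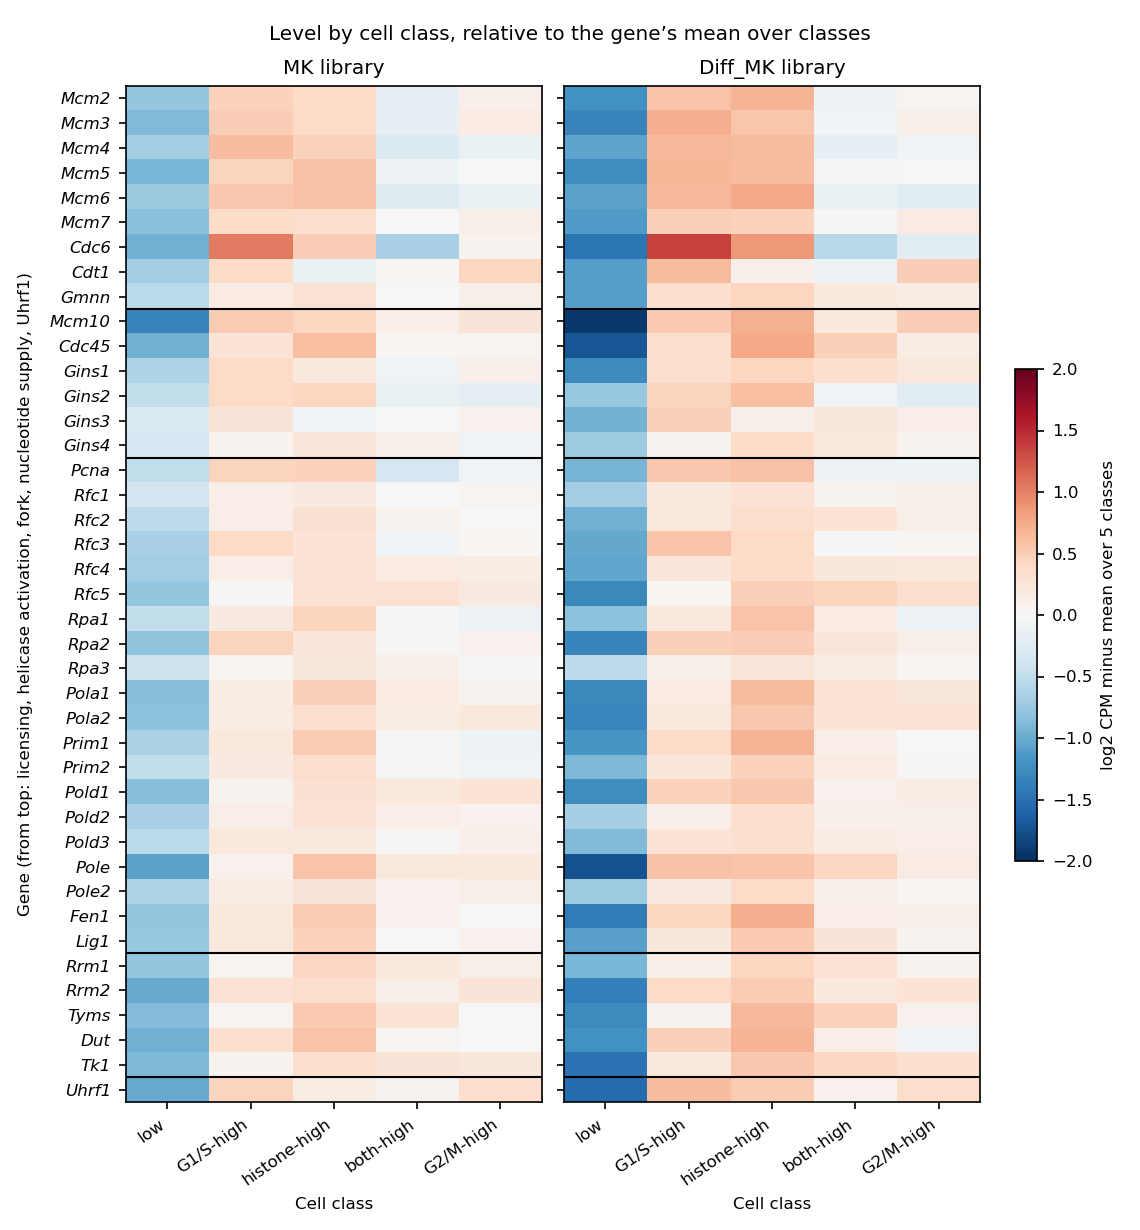
Level of each gene in 5 cell classes as log2 CPM minus the gene's mean over the classes, MK left and Diff_MK right; black lines separate the roles. The low class is the lowest for all 41 genes in both libraries, Cdc6 is darkest in G1/S-high cells, and Cdt1 is paler in histone-high than in G2/M-high cells.

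The class with the highest level differed among the roles. Of all genes tested 11% in MK and 22.2% in Diff_MK were highest in G1/S-high cells, and 14.7% and 15.2% in histone-high cells. Of the licensing genes 5 of 9 in MK and 6 of 9 in Diff_MK were highest in G1/S-high cells, and 3 of 9 in histone-high cells in each library. Several of these ranks lie within counting error. Between G1/S-high and histone-high cells the intervals overlap for Mcm2, Mcm6 and Mcm7 in MK. In Diff_MK they overlap for Mcm2, Mcm4, Mcm5, Mcm6 and Mcm7. The Diff_MK interval of Cdt1 in G1/S-high cells overlaps that in G2/M-high cells. The helicase activation genes were mixed, with 3 of 6 highest in G1/S-high cells in MK and 1 of 6 in Diff_MK, and the others in histone-high cells. Of the fork genes 16 of 20 and 18 of 20, and of the nucleotide supply genes 5 of 5 and 5 of 5, were highest in histone-high cells. The highest class was the same in both libraries for 32 of the 41, and the share over all genes tested was not counted. Between G1/S-high and histone-high cells the median log2 difference was 0.05 for licensing, 0.02 for helicase activation, -0.17 for fork and -0.27 for nucleotide supply genes in MK, and 0.01, -0.17, -0.17 and -0.32 in Diff_MK. The order of the licensing, fork and nucleotide supply genes was the same with the top 15% or 35% of cells, at 5000 UMIs, and without the cells of highest doublet score, in both libraries. With the top 35%, however, the licensing value in MK was -0.11. These medians rest on 5 to 20 genes and on sizes well under 1.5-fold.

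Cdc6 was the clearest G1/S gene. It had 8.7 CPM in low, 34.7 in G1/S-high, 23.8 in histone-high, 10.8 in both-high and 17.8 in G2/M-high cells of MK, and 4.4, 30.8, 21.9, 8.1 and 10.3 CPM in Diff_MK. Cdt1, known as a protein that is destroyed in S phase, had less RNA in histone-high and both-high cells than in G1/S-high and G2/M-high cells. It had 40.8, 85.4, 60.4, 67.9 and 89.8 CPM in the same order of MK classes, and 20.2, 67.0, 46.2, 39.7 and 60.8 CPM in Diff_MK. The lower of the histone-high and both-high levels of Cdt1 was thus histone-high in MK and both-high in Diff_MK. Its inhibitor Gmnn was not lower in histone-high than in G2/M-high cells, with 146.0 and 129.8 CPM in MK, and 134.7 and 110.5 CPM in Diff_MK. From histone-high to G2/M-high cells Rrm2 went from 337.0 to 318.9 CPM in MK and from 279.9 to 238.8 CPM in Diff_MK. Rrm1 went from 124.1 to 101.3 CPM and from 127.0 to 98.9 CPM.

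From histone-high to G2/M-high cells most members were lower, 38 of 41 in MK and 39 of 41 in Diff_MK, by small amounts, where 42.4% and 41.3% of all genes tested were lower. At least 1.5-fold lower were 5 of 41 in MK, where 0.63% of all genes tested were, and 12 of 41 in Diff_MK, where 1.16% were. The median log2 difference was -0.31 in MK and -0.62 in Diff_MK for licensing genes, -0.25 and -0.26 for helicase activation genes, -0.22 and -0.37 for fork genes, and -0.29 and -0.36 for nucleotide supply genes. Mcm6 was lower by most in MK (-0.71, from 146.0 to 89.3 CPM) and had -0.97 in Diff_MK (122.1 to 62.1 CPM). Mcm5 had -0.60 and -0.62, Mcm4 -0.60 and -0.70, and in Diff_MK Cdc6 had -1.09, the lowest value of the 41. Mcm7, in the same ring, had -0.23 and -0.29. Cdt1 alone of the licensing genes was higher in G2/M-high cells, by 0.57 in MK and 0.40 in Diff_MK. Of the activators Gins2 (-0.60 and -0.82) and Cdc45 (-0.55 and -0.62) were lowest, and Gins3 was at 0.15 and 0.04. Of the fork genes Prim1 had -0.61 and -0.70, Rpa1 -0.56 and -0.69, and Pold1, with the highest value in MK, -0.03 and -0.40. Of the supply genes Dut (-0.56 and -0.75) and Tyms (-0.52 and -0.56) were lower by more than Tk1 (-0.11 and -0.22) and Rrm2 (-0.08 and -0.23). The contrast was again alike between the libraries across genes (r = 0.88, rho = 0.86, n = 41, with the same sharing of cells).

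Within histone-high cells 33 of the 41 genes were lower in Diff_MK, where 55.7% of all genes tested were. None was at least 1.5-fold lower, a count near the 2.45% of all genes tested. The median log2 ratio was -0.16 for licensing, -0.09 for helicase activation, -0.10 for fork and -0.27 for nucleotide supply genes, and -0.03 over all genes tested. Within low cells 29 of 41 were at least 1.5-fold lower, where 18.8% of all genes tested were, with medians of -0.82, -0.98, -0.64 and -0.78, and -0.27 over all genes tested. Pcna was lower in Diff_MK in both, with 324.0 and 233.0 CPM in histone-high cells and 166.9 and 81.4 CPM in low cells. Mcm3 was the other large difference among histone-high cells, at 208.7 and 152.6 CPM. Gins4 went the other way, with 68.4 CPM in MK and 85.6 CPM in Diff_MK histone-high cells (a log2 ratio of 0.32), and 45.2 and 40.6 CPM in low cells. Pold2 was the only member with a higher CPM in Diff_MK low cells, 26.3 and 28.6 CPM, and under median-ratio scaling Gins4, Rpa3 and Rrm1 joined it. Under that scaling 14 of 41 members were at least 1.5-fold lower in low cells, where 6.60% of all genes tested were. With the class limits set at the top 35% of cells, 4 of 41 were at least 1.5-fold lower in histone-high cells, where 4.40% of all genes tested were.

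**Figure D3:**
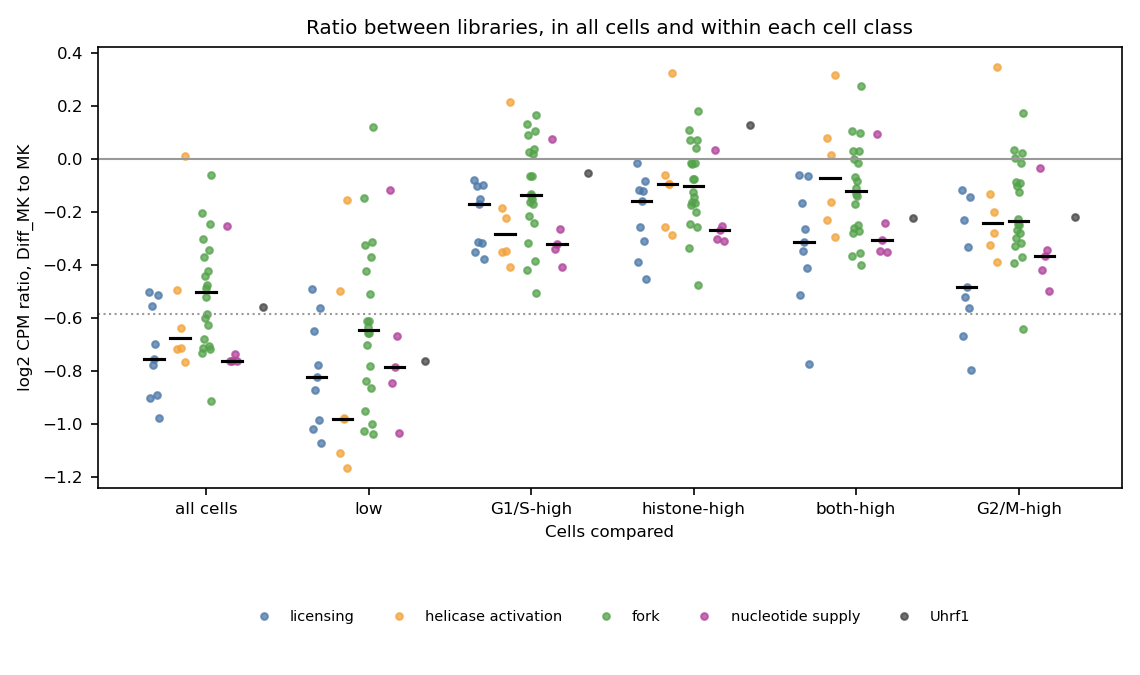
Log2 CPM ratio of Diff_MK to MK for each gene, in all cells and within each class; points are genes coloured by role, black bars role medians, and the dotted line 1.5-fold lower. In low cells 29 genes lie below the dotted line and in histone-high cells none does; the highest helicase activation gene in each class is Gins4.

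The low cells of the libraries were not alike in the G2/M and G1/S scores. Their mean histone sums were close, at 1.43 UMIs in MK and 1.52 in Diff_MK. Their mean G2/M sum was 7.98 UMIs in MK and 4.09 in Diff_MK, and their mean G1/S sum 1.92 and 1.11. Restricting low cells to at most 5 G2/M UMIs, a choice made after these values were seen, kept 1002 MK and 2787 Diff_MK cells with mean G2/M sums of 1.73 and 1.12. Their mean G1/S sums, 1.47 and 0.815, were about as far apart as before. In these the medians were -0.93 for licensing, -1.04 for helicase activation, -0.62 for fork and -0.51 for nucleotide supply genes, beside -0.32 for all genes tested. Their Mcm2 to Mcm7 sum was 167 CPM in MK and 91.6 CPM in Diff_MK. Weighting the MK class levels by the Diff_MK class shares of UMIs gave a median log2 ratio of -0.23 over the 41 genes, where the observed value over the same cells was -0.60. For single genes the weighted value ran from -0.09 (Gins3) to -0.36 (Cdc6). No share over all genes tested was computed here, and the observed value lay below the weighted one for 39 of 41 members. It lay above it for Pold2 (-0.05 against -0.19) and Gins4 (0.02 against -0.11), and for Rrm1 both were alike (-0.24 and -0.22). With class limits at the top 15% or 35% of cells, an alternative added after the data were seen, the weighted median was -0.11 or -0.25. The weighted value moved with these limits and is not a measured part of the observed difference. What sets either value was not tested, since the classes are ranges of a score and can differ within.

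Seen per cell, at 7500 UMIs each, the helicase subunits were scarce in many Diff_MK cells. The median cell had 4 UMIs of Mcm2 to Mcm7 in MK and 2 in Diff_MK. None was found in 8.96% of MK cells (interval 8.30% to 9.67%) and in 33.2% of Diff_MK cells (32.0% to 34.3%). Among low cells these shares were 26.3% and 53.5%, and among histone-high cells 1.82% and 5.62%. Over all 41 genes the median cell had 21 UMIs in MK and 11 in Diff_MK. A cell with no UMI can still hold the transcript, and the libraries hold no cell type that lacks these genes from which free RNA could be gauged.

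**Figure D4:**
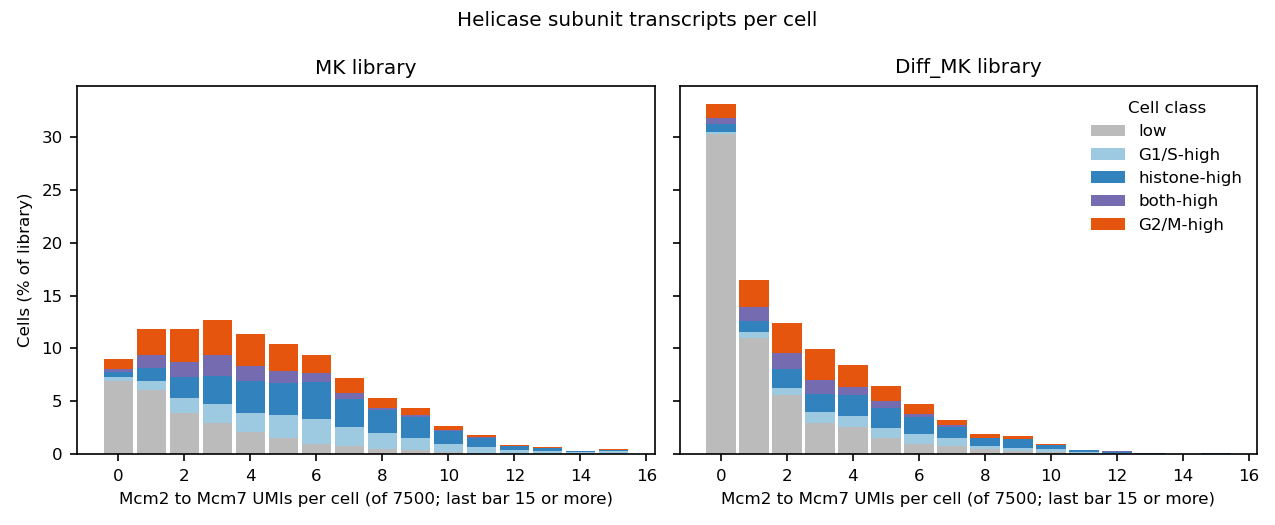
Summed Mcm2 to Mcm7 UMIs per cell after thinning to 7500 UMIs, as percent of the cells of the MK (left) and Diff_MK (right) library, bars stacked by cell class. Cells with 0 make up 8.96% of MK and 33.2% of Diff_MK, and in Diff_MK most of that bar is low cells.

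Other genes of the pathway, a list of 77 outside the members of which 74 were tested, were also mostly lower. In Diff_MK 70 of 74 were lower, 24 of them at least 1.5-fold, 4 were higher and none was at least 1.5-fold higher, with a median log2 ratio of -0.46. Of all genes tested 69.4% were lower and 7.59% at least 1.5-fold lower. By part, 7 of 7 origin genes, 8 of 8 firing genes, 19 of 20 other fork genes, and 25 of 25 nucleotide metabolism genes were lower. Of the nucleotide metabolism genes, Cmpk1, Impdh1 and Dctd had ratio intervals that include no change. The 11 of 14 regulators that were lower lie near the share of all genes. The lowest were Chaf1b, a subunit of the chromatin assembly factor that follows the fork (39.9 to 19.0 CPM, 2.10-fold), Samhd1, which degrades deoxynucleotides (67.3 to 32.7 CPM, 2.06-fold), and E2f8, a repressor of the E2F family (19.6 to 9.86 CPM, 1.99-fold). The highest were Pold4, the small subunit of polymerase delta (75.6 to 99.0 CPM, log2 ratio 0.39), Rbl2, a pocket protein of resting cells (7.61 to 9.75 CPM, 0.36), and Ccnd2, cyclin D2 (207.7 to 254.8 CPM, 0.29). The 4 subunits of polymerase delta thus ran from Pold4, higher in Diff_MK, over Pold2 to Pold3 and Pold1.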

How the data were processed

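Single-cell RNA libraries of GFP-sorted MK keratinocytes were grouped by title, 1 library per group. The deposited matrices hold raw UMI counts of each gene in each cell. Cell Ranger 6.1.2 and the build mm10 are named in the submitters' processing notes, and no source used here names the gene annotation. Gene positions and overlaps are from a GRCm38 annotation. The tag libraries were not used.

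Cells with at least 1000 genes and at most 15% mitochondrial counts were kept. Counts were summed to CPM. Ratios have exact conditional binomial intervals, shares Clopper-Pearson and levels Poisson intervals, at 95%, and medians order-statistic intervals over genes. Cells under 7500 UMIs (337 MK, 635 Diff_MK) were left out of the classes. Doublets were not removed, since Scrublet (scanpy 1.11.5) called too few to have worked, and leaving out the top 6% by score was tried instead. Calculations ran in Python 3.11.15 and were tested on simulated data. Members and all lists were chosen with earlier results of these data known. All members are described, with fuller values for the 2 of each role highest in mean level, in size of log2 ratio, and at each end of the G2/M-high contrast, and for the 3 lowest and 3 highest pathway genes. Other scalings, filters, class limits and depths were tried.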

Additional observations from a re-analysis of the deposited data

Results flagged for a closer look

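Uhrf1 differed in direction between the libraries. Its level in G2/M-high cells was 1.14 times that in histone-high cells in MK (47.2 and 41.4 CPM) and 0.896 times in Diff_MK (40.6 and 45.3 CPM), so it was higher in MK and lower in Diff_MK. The difference was not tested, since each value comes from 1 library.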

How the results depend on the processing

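Of the group values, 101 of 129 alternatives stayed within the interval or within 1.5 times the reported value, and 28 moved. Scaling by the median ratio of genes gave 10 members at least 1.5-fold lower, with no share of all genes counted. It gave -0.35 for fork genes, and in low cells -0.56 for licensing and -0.38 for fork genes. It turned the log2 ratio of Pold2 to 0.093. With each cell weighted equally the medians were -0.95 for licensing, -0.83 for helicase activation and -0.93 for nucleotide supply genes. With class limits at the top 15%, the histone-high to low median was 0.70, 0.54 and 0.72 in MK for licensing, fork and nucleotide supply genes, 1.36 and 1.16 in Diff_MK for licensing and fork genes, and the G2/M-high to histone-high median of fork genes in Diff_MK was -0.46. At the top 35% the first contrast was 1.74, 1.43 and 1.91 in MK, and 2.08 and 2.12 in Diff_MK for licensing and nucleotide supply genes. The second was -0.16 and -0.14 in Diff_MK for fork and nucleotide supply genes, and Diff_MK to MK in histone-high cells was -0.40, -0.34, -0.29 and -0.51 by role in the order used above. Without the cells of highest Scrublet score, the histone-high to low median of licensing genes in Diff_MK was 1.91. At 5000 UMIs it was 0.82 for fork and 1.09 for nucleotide supply genes in MK, and Diff_MK to MK in histone-high cells was -0.33 for nucleotide supply genes. None of these group medians changed sign, whereas at the top 35% the G1/S-high to histone-high medians in MK turned to -0.11 for licensing and -0.19 for helicase activation genes, and the cause of each shift was not tested. For single genes, the G1/S-high medians and the weighted median 115 of 198 alternatives stayed within their interval. With 1 library per group, no library could be left out and no paired analysis was possible because the groups hold no replicates. Depth limits the per-cell values, since the median Diff_MK cell holds 2 helicase subunit UMIs.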
